A study of Mus musculus with 4 samples.

Results

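The 10 genes described here encode the cyclins and kinases that carry cells from G1 into S phase, with the retinoblastoma protein on which those kinases act. They are the D cyclin genes Ccnd1, Ccnd2 and Ccnd3, the E cyclin genes Ccne1 and Ccne2, the A cyclin gene Ccna2, the kinase genes Cdk2, Cdk4 and Cdk6, and Rb1. They were taken by symbol from the 49997 genes of each count table, as a set named for its role in the cycle at a time when earlier results of these data were known, and all 10 passed the filter on low counts that left 12783 genes to test. RNA was sequenced from 4 cultures of wild-type iMOP cells, a mouse line of immortalized inner ear progenitors, 2 proliferating and 2 differentiated into neurons. Proliferating cultures grew in DMEM/F12 with the supplement B27, carbenicillin and 20 ng/ml bFGF (basic fibroblast growth factor). Neuron cultures grew in Neurobasal medium with the supplement N21, L-glutamine and 1 µM K03861, an inhibitor of the kinase CDK2. The groups differed in medium, growth factor and inhibitor at once, so the effects of these cannot be told apart. All cultures came from the same cell line, and both replicate 2 titles carry the words set 2, so same-numbered libraries were also compared as pairs.

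D cyclins are made when growth factors act on a cell, and they activate CDK4 and CDK6. These kinases phosphorylate the retinoblastoma protein, which otherwise holds E2F transcription factors in check. Released E2F factors drive the genes of E and A cyclins, whose partner CDK2 phosphorylates the retinoblastoma protein further and supports DNA replication. Cells that leave the cycle to become neurons usually lose this drive, and inhibitor proteins such as p27 hold the remaining kinases.

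The D cyclins Ccnd1 and Ccnd2 were lower in both neuron libraries than in both proliferating libraries, whereas Ccnd3 lay between 5.41 and 7.96 CPM in all 4 (CPM is the count scaled to the TMM-adjusted library size). Cdk2, the gene of the kinase that K03861 inhibits, and Ccne1, that of its partner, differed little between libraries. Ccna2 and, within counting error, Ccne2 were higher in the neuron library of each pair, as were 28.8% of all genes tested. For both genes the replicate 2 libraries were also below the replicate 1 libraries. Cdk4, Cdk6, Ccne2 and Rb1 varied more between replicates than between groups. None of the 10 differences passed the test across all genes: edgeR's quasi-likelihood test called 0 of 12783 genes in either direction (0% each, Benjamini-Hochberg threshold 0.05). DESeq2 called 12 genes higher and 48 lower, none of the 10 among them. In edgeR before adjustment, 438 genes (3.43%) had a p-value below 0.05. Ccnd1 and Ccnd2 were among those 438, both on the lower side with 2.51% of all genes tested, and 0 of the 10 were on the higher side with 0.915%.

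The libraries held 7446361 to 14484011 counts, of which 53.3% to 76.1% fell on the 18S ribosomal RNA row Rn18s-rs5, with the higher shares in both replicate 2 libraries. The 10 genes together held 1005 to 1546 counts per library. The summed level of 10 neuron markers was 159 and 347 CPM in proliferating replicates 1 and 2 and 200 and 360 CPM in neuron replicates 1 and 2, so the sum separated the replicate numbers and not the groups. It was moved most by Tubb3, a neuronal tubulin, at 19.1 and 193 CPM against 28.7 and 104 CPM. Of the 9 neuron markers tested, 2 were higher in both neuron libraries without overlap, beside 12.9% of all genes. These were Elavl4, an RNA-binding protein gene of neurons (7.54 and 12.1 against 17.7 and 37.9 CPM), and Map2, a microtubule protein gene (93.6 and 92.1 against 121 and 140 CPM). The neuron marker Stmn2 was lower in both pairs, beside 25.5% of all genes, at 0.328 and 8.10 against 0.252 and 3.56 CPM. The other neuron markers tested, among them Tubb3, Elavl3, Snap25 and Syt1, went opposite ways in the pairs. Nefm, a neurofilament gene, had 0 or 1 count in each library. The proliferation markers Mki67 and Top2a summed to 260 and 32.8 CPM when proliferating and 336 and 177 CPM in neurons, so proliferating replicate 2 was the lowest. Progenitor markers, with Pax2 at 0, summed to 404 and 1249 CPM against 389 and 260 CPM. Most of that was Vim (258 and 937 against 235 and 198 CPM). Of the 4 tested, Vim and Sox9 were lower in both neuron libraries without overlap, beside 14.5% of all genes. Sox2 and Nes went opposite ways in the pairs. Glial markers summed to 44.2 and 71.5 CPM against 23 and 8.54 CPM. Of the 6 glial markers, 3 were tested, and Gfap, which marks astrocytes, had 181 and 89 counts in proliferating cultures and 1 and 2 in neurons. Hair cell markers, with Pou4f3 at 0, summed to 23.8 and 18.9 CPM against 4.61 and 22.1 CPM. Most of that was Myo6 (21.0 and 16.3 against 4.53 and 12.4 CPM) and, in neuron replicate 2, Atoh1 (9.25 CPM). Mesenchymal markers, with Col1a2 and Dcn at 0, summed to 10.2 and 10.1 CPM against 17.1 and 7.12 CPM. Nearly all of it was Pdgfra (9.75 and 8.91 against 16.8 and 7.12 CPM), the 1 gene of that list tested. The part of these markers in the results was not tested. In bulk RNA, fewer cells of a type and less RNA per cell cannot be told apart.

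**Figure D1:**
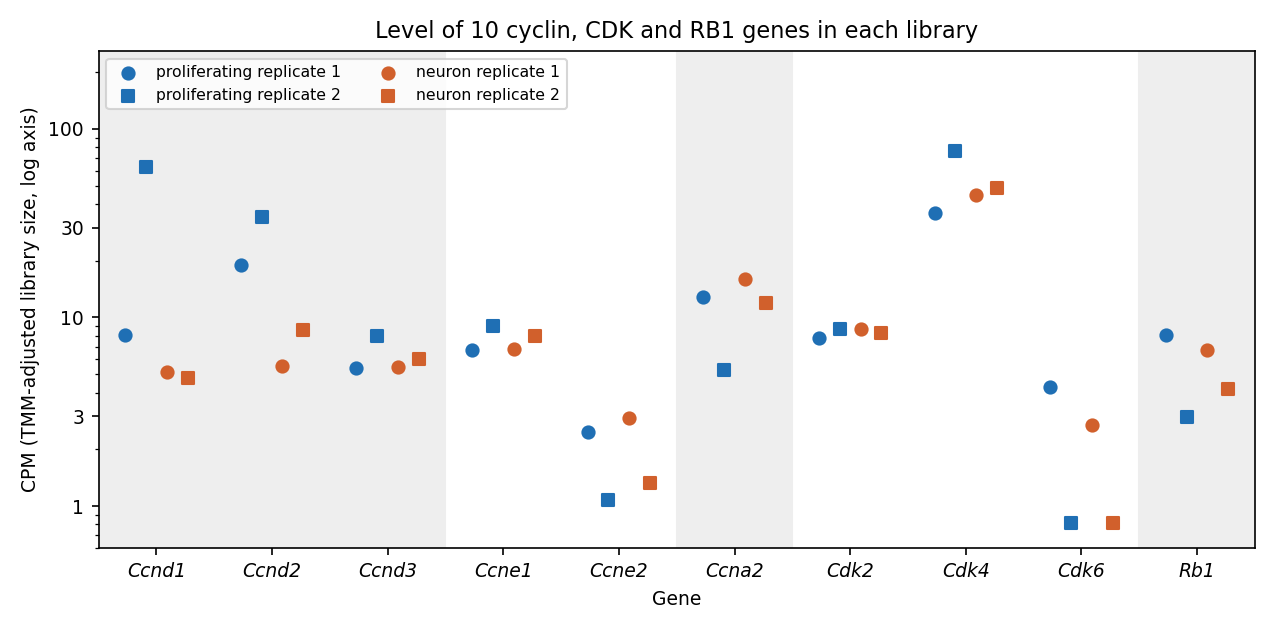
Level of each of the 10 genes in CPM on a log axis, with circles for replicate 1, squares for replicate 2, blue for proliferating and orange for neuron libraries. Ccnd1 and Ccnd2 are the genes whose blue points both lie above both orange points, while Cdk2 spans 7.78 to 8.72 CPM over the 4 libraries.

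Ccnd2 encodes cyclin D2 and lies on chromosome 6 (127125162 to 127152188, minus strand, GRCm38). Proliferating replicates 1 and 2 had 232 and 253 counts of it, and neuron replicates 1 and 2 had 66 and 84. In CPM these were 19.0, 34.2, 5.54 and 8.54. Both neuron libraries were lower than both proliferating ones, and the groups did not overlap. The neuron library was 3.43-fold lower in the replicate 1 pair (95% counting interval 2.60 to 4.58) and 4.0-fold lower in the replicate 2 pair (3.11 to 5.18), so the size of the difference was alike in both. Means with SD (n = 2 each) were 26.6 ± 10.7 CPM for proliferating cultures and 7.04 ± 2.12 CPM for neurons. On the log2 scale Ccnd2 differed by -1.92 (SE 0.54, 95% interval -3.18 to -0.65), with an edgeR p-value of 0.00858 and an adjusted p-value of 0.928. With the replicate number as a block, where 0.0235% of genes were called lower and 0% higher, it was -1.89 (SE 0.45, edgeR adjusted p = 0.237). The difference passed the threshold only where the block was joined by a correction for GC content, with a value of -1.94 (edgeR adjusted p = 0.0431), a setting in which 0.548% of genes were called lower.

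Ccnd1 encodes cyclin D1, the D cyclin best known as a target of growth factor signalling, and lies on chromosome 7 (144929931 to 144939831, minus strand). Its counts were 99 and 464 in proliferating replicates 1 and 2, and 61 and 47 in neuron replicates 1 and 2. In CPM it was at 8.11, 62.6, 5.12 and 4.78 in the same order. The neuron libraries were close to each other, and proliferating replicate 2 stood far above the other 3 libraries. The difference was 1.59-fold in the replicate 1 pair (95% counting interval 1.14 to 2.22) and 13.1-fold in the replicate 2 pair (9.70 to 18.1), and these counting intervals did not overlap. With 1 library per group and number, that contrast between the pairs cannot be tested against replicate error. For both pairs together edgeR gave Ccnd1 a log2 fold change of -2.83 (SE 0.90, 95% interval -4.94 to -0.72), with a p-value of 0.0154 and an adjusted p-value of 0.9998. It was -0.69 without proliferating replicate 2. Without proliferating replicate 1 it was -3.69, in a fit where proliferating replicate 2 was the lone proliferating library. Without a filter on low counts it was -2.77 (edgeR adjusted p = 0.00217), where 41 genes were called higher and 122 lower of 25859. In each of the other settings with all 4 libraries it missed the threshold.

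Ccnd3 encodes cyclin D3 and lies on chromosome 17 (47505051 to 47599689, plus strand). Proliferating cultures had 66 and 59 counts of it and neurons 65 and 59, which is 5.41, 7.96, 5.45 and 6.0 CPM. The groups overlapped. Ccnd3 had a log2 fold change of -0.22 (SE 0.49, 95% interval -1.36 to 0.92), an interval that leaves room for a change of more than 2-fold downward. A pseudogene copy, Ccnd3-ps, had 2 to 10 counts per library, and the treatment of reads that match both is not given in the sources used here.

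The ratio of the D cyclins to each other does not depend on how libraries are scaled. Per length, by the RPKM values the authors deposited, Ccnd3 made up 18.7% and 6.56% of the summed D cyclin level when proliferating, against 33.3% and 32.8% in neurons. Ccnd1 made up 41.4% and 76.3% in proliferating cultures and 46.2% and 38.7% in neurons. Ccnd2 made up 39.9% and 17.1% in proliferating cultures and 20.5% and 28.4% in neurons. Ccnd3 was the D cyclin whose share separated the groups. With the longest annotated transcript as the length its share was 21.3% and 8.53% against 38.7% and 37.2%. Counts of Ccnd1 and of Ccnd2 per count of Ccnd3 were lower in both neuron libraries, so any fixed lengths give this direction. The share restates the lower Ccnd1 and Ccnd2, with Ccnd3 itself at a log2 fold change of -0.22 (95% interval -1.36 to 0.92). In counts, there were 3.52 reads of Ccnd2 per read of Ccnd3 in proliferating replicate 1 (95% counting interval 2.66 to 4.69) and 4.29 in proliferating replicate 2 (3.22 to 5.79). In neurons there were 1.02 (0.710 to 1.45) and 1.42 (1.01 to 2.02). The ratio of Ccnd1 to Ccnd3 was 1.5 and 7.86 in proliferating cultures and 0.938 and 0.797 in neurons. These ratios of members' counts were chosen after the data were seen and have no test.

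**Figure D2:**
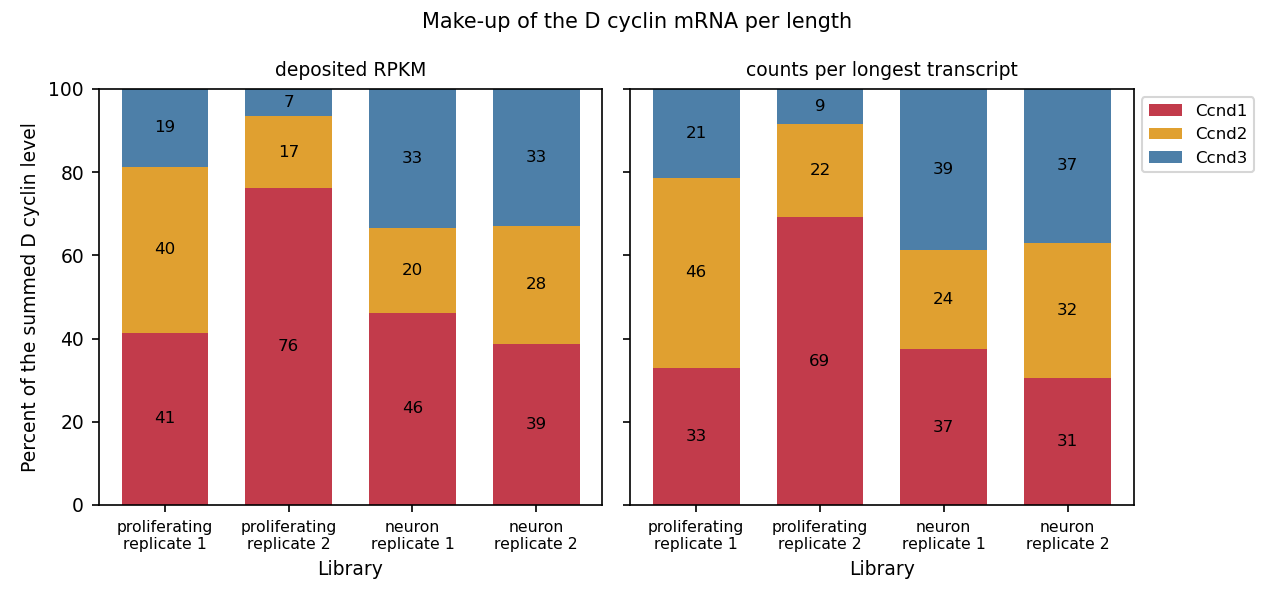
Percent of the summed D cyclin level held by Ccnd1 (red), Ccnd2 (yellow) and Ccnd3 (blue) in each library, by the deposited RPKM (left) and by counts per longest annotated transcript (right). Ccnd3 holds 33.3% and 32.8% in neurons by RPKM against 18.7% and 6.56% in proliferating cultures, and Ccnd1 is largest in proliferating replicate 2 at 76.3%.

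Among the E cyclins, Ccne1 on chromosome 7 (38097984 to 38107490, minus strand) had 82 and 67 counts when proliferating and 81 and 78 in neurons. In CPM it was at 6.72, 9.04, 6.79 and 7.93 CPM, and the groups overlapped. Its log2 fold change was -0.10 (SE 0.48, 95% interval -1.21 to 1.02). Ccne2 on chromosome 4 (11190433 to 11204779, plus strand) had 30, 8, 35 and 13 counts in the same order, at 2.46, 1.08, 2.94 and 1.32 CPM. Both replicate 2 libraries were below both replicate 1 libraries, whatever the group. For Ccne2 the log2 fold change was 0.25 (SE 0.74, 95% interval -1.49 to 1.99), and its sign was negative with the GC correction (-0.34) and with library size alone (-0.06). The neuron library was 1.19-fold higher in the replicate 1 pair (95% counting interval 0.712 to 2.01) and 1.22-fold higher in the replicate 2 pair (0.470 to 3.41). Both intervals include equal levels. With the GC correction the replicate 2 pair of Ccne2 turned to -1.06 on the log2 scale.

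Ccne1 held 97.7% ± 1.64 of the E cyclin level in proliferating cultures and 97.2% ± 1.74 in neurons by the deposited RPKM (SD, n = 2 each). By counts per longest transcript it held 86.5% and 83.8%, since the length used in the deposited RPKM was 19874 bases for Ccne2 and its longest transcript has 3006 bases. Ccne1 was the main E cyclin in each library on either scale. The summed counts of D cyclins per count of E cyclins were 3.54 in proliferating replicate 1 (95% counting interval 2.87 to 4.41) and 10.3 in proliferating replicate 2 (8.16 to 13.3), against 1.66 (1.31 to 2.10) and 2.09 (1.62 to 2.71) in the neuron replicates. The balance of D over E cyclin reads was thus lower in both neuron libraries, without any scaling between libraries.

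Ccna2 encodes cyclin A2, which acts in S phase and at entry into mitosis, and lies on chromosome 3 (36564865 to 36573038, minus strand). Proliferating cultures had 157 and 39 counts of it and neurons 191 and 117, at 12.9, 5.26, 16 and 11.9 CPM. The groups overlapped, and proliferating replicate 2 was the lowest library, as it was for Mki67 and Top2a. The neuron library was 1.25-fold higher in the replicate 1 pair (95% counting interval 1.00 to 1.55) and 2.26-fold higher in the replicate 2 pair (1.56 to 3.34). Its log2 fold change was 0.61 (SE 0.58, 95% interval -0.73 to 1.96, edgeR adjusted p = 0.9998), and it was 0.14 without proliferating replicate 2. With library size alone the replicate 1 pair turned to -0.06 on the log2 scale.

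**Figure D3:**
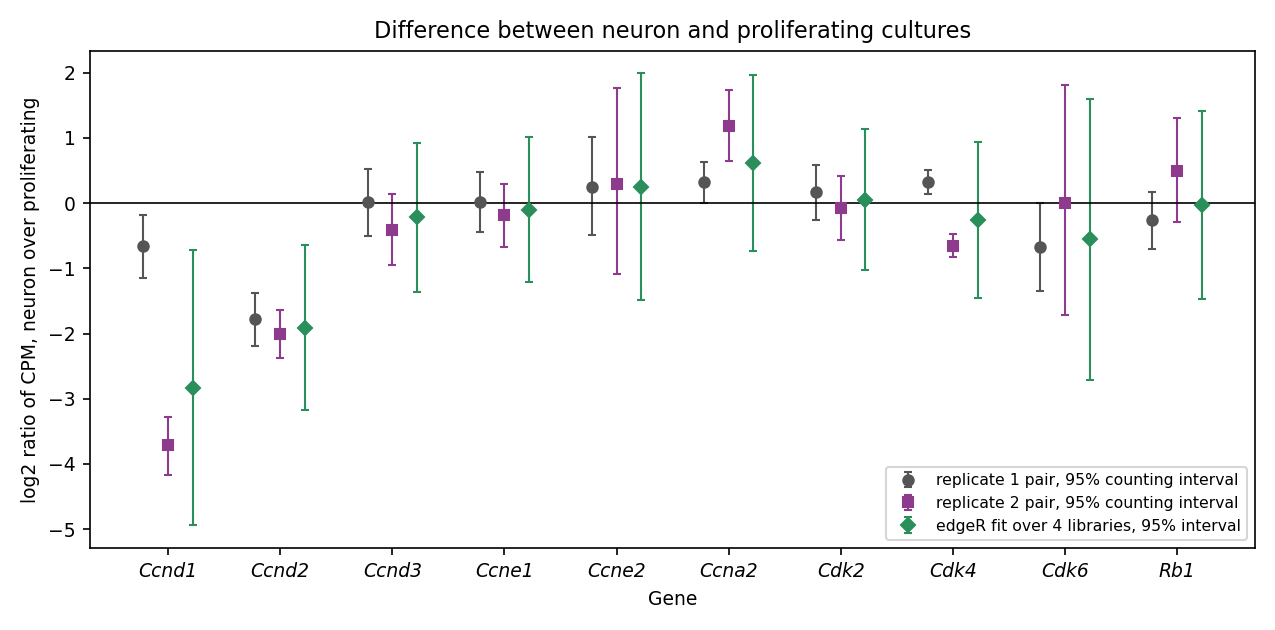
Log2 ratio of neuron to proliferating CPM for each gene in the replicate 1 pair (grey circles) and the replicate 2 pair (purple squares), with bars for 95% counting intervals, and the edgeR log2 fold change with its 95% interval (green diamonds). The edgeR interval lies below 0 for Ccnd1 (-4.94 to -0.72) and Ccnd2 (-3.18 to -0.65) before adjustment over all genes, and it includes 0 for the other 8 genes.

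Cdk2 lies on chromosome 10 (128697938 to 128705051, minus strand) and had 95, 64, 104 and 81 counts in proliferating replicates 1 and 2 and neuron replicates 1 and 2. These were 7.78, 8.64, 8.72 and 8.23 CPM, the narrowest range of the 10 genes. Means with SD (n = 2 each) were 8.21 ± 0.605 CPM for proliferating cultures and 8.48 ± 0.346 CPM for neurons. On the log2 scale Cdk2 differed by 0.05 (SE 0.46), and the 95% interval of -1.03 to 1.13 covers a change of 2-fold either way, so equal levels are not shown. It was -0.19 with library size alone. Read against Cdk2 within a library, Ccnd2 had 2.44 and 3.95 counts per count of Cdk2 in proliferating cultures and 0.635 and 1.04 in neurons. RNA levels say nothing of the activity of the kinase, which is what K03861 acts on.

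Cdk4 lies on chromosome 10 as well (127063535 to 127067288, plus strand) and was the most abundant of the 10 genes per length in each library. Its deposited RPKM was 22.6 and 20.9 in proliferating cultures and 21.6 and 12.6 in neurons. There were 439 and 564 counts of Cdk4 in proliferating cultures and 534 and 477 in neurons, at 36, 76.1, 44.8 and 48.5 CPM. The pairs went opposite ways: the neuron library was 1.25-fold higher in the replicate 1 pair (95% counting interval 1.1 to 1.42) and 1.57-fold lower in the replicate 2 pair (1.39 to 1.78). Over both pairs the log2 fold change was -0.26 (SE 0.51, 95% interval -1.46 to 0.93), and it was 0.39 without proliferating replicate 2.

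Cdk6 on chromosome 5 (3341004 to 3531008, plus strand) was far less abundant, with 52, 6, 32 and 8 counts and 4.26, 0.810, 2.68 and 0.813 CPM in the same order. It was the lowest of the 10 genes per kilobase of longest transcript in each library. Cdk4 held 99.3% and 99.6% of their summed RPKM in proliferating cultures and in neurons on average. Cdk6 had a log2 fold change of -0.55 (SE 0.92, 95% interval -2.71 to 1.6), and with 6 and 8 counts in the replicate 2 libraries a change of 3-fold either way was within counting error there (0.306 to 3.51). It turned to 1.09 without proliferating replicate 1 and to 0.06 without neuron replicate 2.

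Promoter sequences are shown for Cdk4, the most abundant of the 10 genes, and for Cdk2, the gene of the inhibited kinase. RefSeq windows for GRCm38.p6 were matched for 5 of the 10 genes (6 windows, since Ccnd3 has 2 starts), and the 250 bases before each start were searched on both strands. The motifs were the E-box CACGTG, the site of MYC and related factors, and the E2F motifs TTTCCCGC, TTTGGCGC, TTTCGCGC and TTTGCCGC, whose matches are in capitals in the sequences, and the GC box GGGCGG, the site of SP1 and related factors, which is left in lower case.
Cdk4, chr10:127063285-127063534, plus strand: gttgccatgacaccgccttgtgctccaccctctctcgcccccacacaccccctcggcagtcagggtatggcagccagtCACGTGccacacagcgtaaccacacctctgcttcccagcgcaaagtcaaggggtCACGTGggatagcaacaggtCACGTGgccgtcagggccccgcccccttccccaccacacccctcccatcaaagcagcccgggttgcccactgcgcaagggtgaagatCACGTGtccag
Cdk2, chr10:128705052-128705301, minus strand: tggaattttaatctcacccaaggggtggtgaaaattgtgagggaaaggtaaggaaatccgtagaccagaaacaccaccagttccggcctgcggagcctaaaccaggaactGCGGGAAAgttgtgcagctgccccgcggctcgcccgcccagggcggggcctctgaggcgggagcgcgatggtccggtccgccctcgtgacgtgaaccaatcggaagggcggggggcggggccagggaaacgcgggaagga
The Cdk4 window held 4 E-boxes, starting 172, 118, 98 and 11 bases before the start. An E-box was in 6.02% of the 32851 windows of this length, and 7 windows held 4 or more. The Cdk2 window held 1 E2F motif, 140 bases before the start and read on the other strand as GCGGGAAA, and an E2F motif was in 1.86% of windows. The Cdk6 window held 1 E-box, and neither an E-box nor an E2F motif was in the windows of Ccne1 and Ccnd3. There were 5 GC boxes in the Cdk2 window and 1 in the Cdk4 window, and a GC box was in 32.7% of windows. The motifs do not overlap each other in these windows, and a match is a description of the letters only.

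Rb1, the gene of the retinoblastoma protein, lies on chromosome 14 (73192858 to 73325951, minus strand). Proliferating cultures had 98 and 22 counts of Rb1 and neurons 80 and 41, at 8.03, 2.97, 6.71 and 4.17 CPM. Both replicate 2 libraries were below both replicate 1 libraries. Rb1 had a log2 fold change of -0.03 (SE 0.62, 95% interval -1.47 to 1.42), and it was 0.09 with the replicate block.

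Rb1, Cdk6, Ccne2 and Ccna2 were lower in both replicate 2 libraries than in both replicate 1 libraries, as were 26.0% of all genes tested. Ccnd3, Ccne1 and Cdk4 were higher in both, as were 22.8%. These comparisons of replicate numbers were chosen after the data were seen and have no test. Replicate 2 minus replicate 1 was -1.38 and -0.66 for Rb1, -2.15 and -1.52 for Cdk6 and -1.06 and -1.05 for Ccne2, in proliferating cultures and neurons, on the scale of log2 CPM. Ccne2 and Rb1 have the lowest GC content of the 10 genes (36.3% and 41.2% of the longest transcript, against a median of 49.3% over genes tested), and Cdk6 has the longest transcript (11525 bases, against 3435). After the GC correction the replicate differences were -0.30 and -0.37 for Rb1, -1.67 and -1.42 for Cdk6 and 0.62 and -0.60 for Ccne2. For Ccnd3 and Ccne1 the replicate 2 minus replicate 1 values were 0.54 and 0.13, and 0.42 and 0.22, and with the GC correction all 4 lay between -0.17 and 0.05. For Cdk4 they were 1.08 and 0.11, and 0.67 and -0.11 with the GC correction. For Ccna2 they were -1.26 and -0.42, and -0.90 and -0.37 with it. Those of Ccnd2 were 0.84 and 0.61, and 1.06 and 0.62 with it. In proliferating cultures the same difference was 2.92 for Ccnd1, and 2.67 after the GC correction. The part of GC content and of the set in these differences was not tested.

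Over the 10 genes, 2 were lower in neurons in both pairs (Ccnd1 and Ccnd2), where 25.5% of genes tested were, and 2 were higher in both (Ccna2 and Ccne2), where 28.8% were. Of 10 genes, 2 in each direction is not above the background, and the counting intervals of Ccne2 included equal levels in both pairs. A log2 fold change under -1 with groups that did not overlap was found for 4.98% of genes and, of the 10, for Ccnd1 and Ccnd2. A difference of more than 1 on the log2 scale downward in both pairs was found for 2.43% of genes and, of the 10, for Ccnd2. Its log2 difference was -1.74 and -1.98, and 2.88% and 2.37% of genes had a lower value in the replicate 1 and replicate 2 pair. For Ccnd1, at -0.65 and -3.66, these were 15% and 0.469%. The groups did not overlap in CPM, with neurons lower, for the same 2 of 10 genes against 14.5% of all genes, and with neurons higher for 0 of 10 against 12.9%. The median log2 fold change of the 10 was -0.16, beside 0.02 for all genes tested. Scaling by library size alone moved the median of all genes by -0.29, and under it 7 of the 10 genes were lower in both pairs and 0 higher in both. The shares of all genes under that scaling are not given here, so these counts have no background to be read against.

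**Figure D4:**
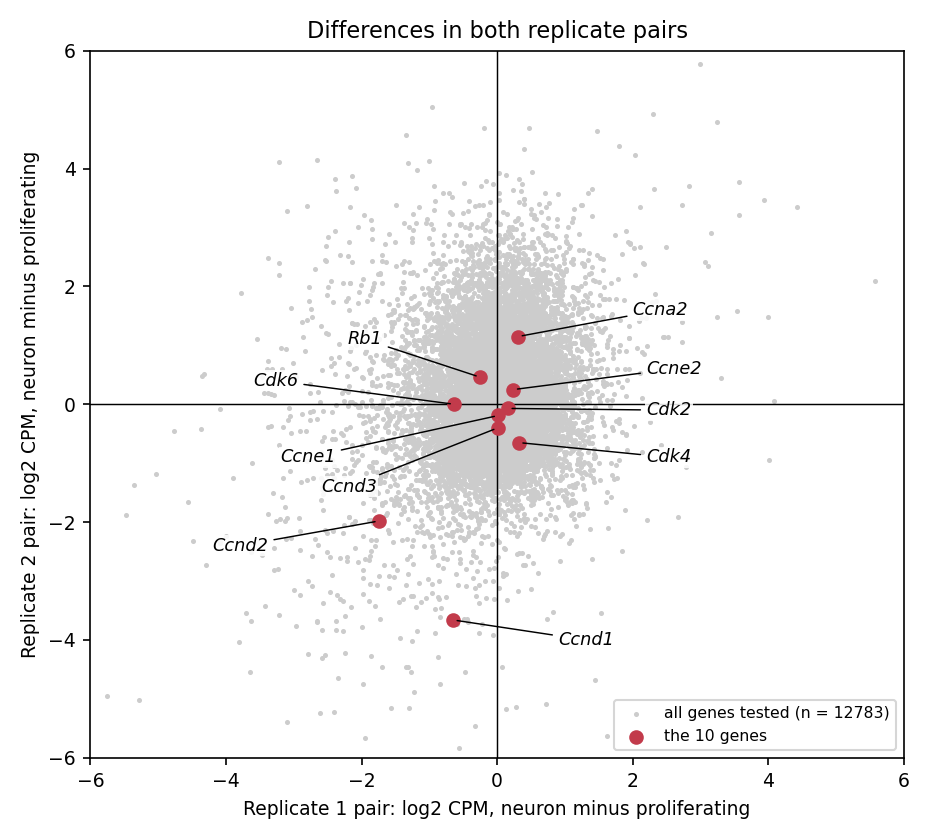
Neuron minus proliferating log2 CPM (prior count 2) in the replicate 1 pair (x axis) and the replicate 2 pair (y axis) for 12783 genes (grey) and the 10 genes (red). Ccnd2 lies at -1.74 and -1.98 and Ccnd1 at -0.65 and -3.66, apart from the other 8 genes, and 9 genes fall outside the plotted range.

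The genes around these 10 in the pathway were read from lists of the same process. Of 12 pocket protein and E2F genes, all tested, 0 were called in either direction by edgeR, 4 were higher and 1 lower in neurons in both pairs (28.8% and 25.5% of all genes were), and the median log2 fold change was 0.23. E2f2, an activating E2F factor, was at 1.80 and 3.10 CPM in proliferating cultures and 5.37 and 5.29 CPM in neurons, with a log2 fold change of 1.13 (SE 0.55). Tfdp2, a partner of E2F factors, was at 19.4 and 5.67 CPM against 31.1 and 20.1 CPM. E2f3, the list's gene with the most counts, was at 19.7 and 18.4 CPM against 24.4 and 21.9 CPM. For these 3 of the 12 genes the neuron libraries were higher without overlap, beside 12.9% of all genes, and for E2f6, a repressing E2F factor, they were lower without overlap, beside 14.5%. E2f6 was at 8.93 and 12.3 CPM in proliferating cultures and 7.13 and 7.62 CPM in neurons. The list's median turned to -0.09 with library size alone and -0.01 on the log2(RPKM + 1) scale.

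Of 7 CDK inhibitor genes 6 were tested, with 0 called. In both pairs 2 were higher and 1 lower (28.8% and 25.5% of all genes were), with a median of 0.24. That median was -0.14 without proliferating replicate 1, 0.01 with library size alone and -0.01 without a filter on low counts. Cdkn1b, which encodes the inhibitor p27 of CDK2 complexes, had 268 and 150 counts in proliferating cultures and 404 and 428 in neurons. In CPM it was at 22 and 20.2 against 33.9 and 43.5, with a log2 fold change of 0.87 (SE 0.44, edgeR adjusted p = 0.9998). Both neuron libraries were thus higher without overlap, as for 2 of the 6 genes tested, beside 12.9% of all genes. For 1 of the 6 they were lower without overlap, beside 14.5%. Cdkn1a, which encodes p21, a target of p53, was lower in both pairs, with 27 and 31 counts against 6 and 20. Its level was 2.21 and 4.18 CPM against 0.503 and 2.03 CPM, a log2 fold change of -1.33 (SE 0.82).

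Of 14 genes of CDK activation and cyclin turnover 0 were called. In both pairs 5 were higher and 2 lower (28.8% and 25.5% of all genes were), and the median was 0.09. It was 0.35 without proliferating replicate 1 and 0.34 without neuron replicate 2, and negative without neuron replicate 1 (-0.08), with library size alone (-0.10) and on both log2 RPKM scales (-0.07 and -0.16). Cdc25c, a phosphatase that activates CDK1, was at 2.54 and 0.945 CPM in proliferating cultures and 4.45 and 2.95 CPM in neurons. Cul3, a scaffold of ubiquitin ligases and the list's gene with the most counts, was at 39.4 and 12.7 CPM against 44.7 and 38.2 CPM. Of the 5 later cyclins and CDK1, 4 were tested and 0 called. In both pairs 2 were higher and 1 lower (28.8% and 25.5% of all genes were). The list's median was 0.15, and -0.27 with library size alone. Ccnb2, a mitotic cyclin, was at 3.11 and 1.21 CPM in proliferating cultures and 4.53 and 6.30 CPM in neurons, and Cdk1 at 15.5 and 7.02 CPM against 16.9 and 10.9 CPM. Ccnf was lower in both neuron libraries without overlap, beside 14.5% of all genes, at 7.46 and 7.15 against 6.12 and 6.61 CPM. Ccnb1 went opposite ways in the pairs (-0.35 and 0.75 on the log2 scale).

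Of 15 E2F target genes of S phase, all tested, 0 were called, 8 were higher and 0 lower in neurons in both pairs, where 28.8% and 25.5% of all genes were, and the median was 0.32. Leaving out proliferating replicate 2 brought it to 0.03, leaving out neuron replicate 1 to 0.16 and leaving out proliferating replicate 1 to 0.55, and scaling by library size alone to -0.01. Taken by pair, the list's medians were 0.12 (replicate 1) and 0.69 (replicate 2). Mcm6, a subunit of the replicative helicase, was at 57.3 and 25.0 CPM in proliferating cultures and 52.9 and 69.1 CPM in neurons. Proliferating replicate 2 was the lowest library for Mcm6, Cdk1, Top2a and Ccna2 alike. The summed level of this list was 321 and 203 CPM in proliferating cultures and 337 and 317 CPM in neurons, with proliferating replicate 2 again the lowest.

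**Figure D5:**
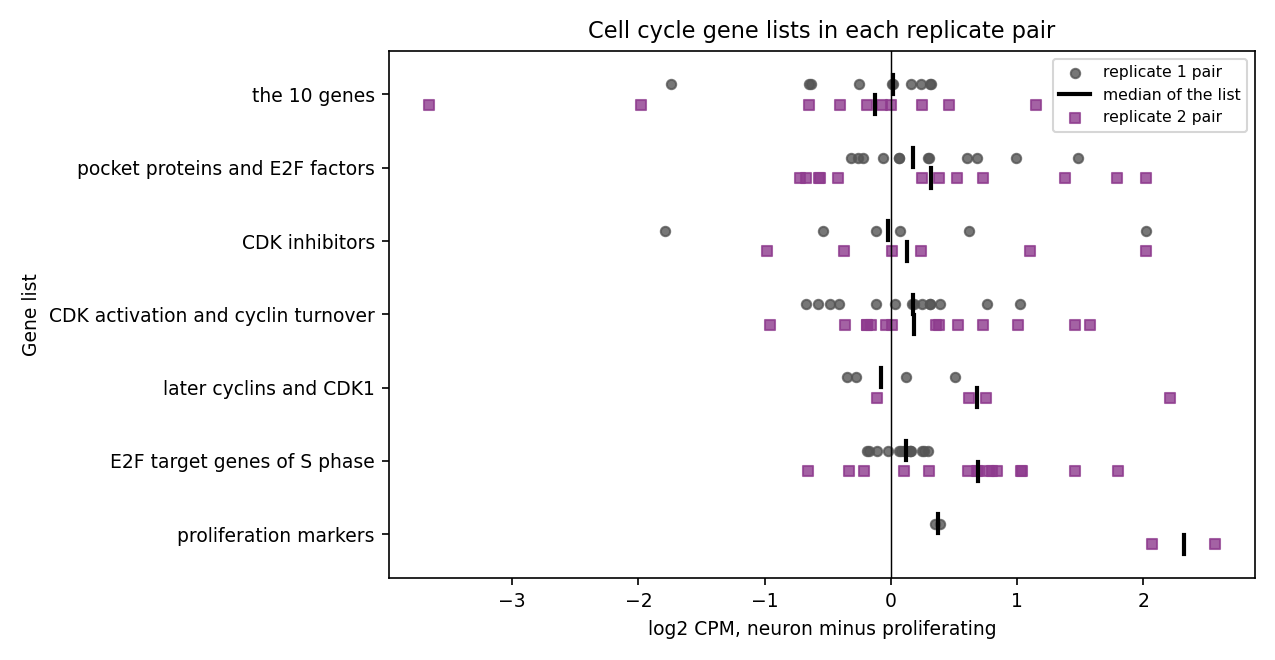
Neuron minus proliferating log2 CPM of each tested gene in the 10 genes and 6 lists, with grey circles for the replicate 1 pair, purple squares for the replicate 2 pair and black bars for list medians. The replicate 2 pair spreads more widely, where the median of the S phase list is 0.69, against 0.12 for replicate 1.

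Other genes share exon bases with the members on the opposite strand, and whether the authors' counting used strand is not given in the sources used here. By GENCODE M21, the exons of Ccnd1 share 1100 bases (23.4%) with LTO1, which had 14 to 29 counts per library. Those of Cdk4 share 641 bases (19.7%) with Tspan31, at 84 to 126 counts, and those of Ccne2 share 609 bases (17.4%) with Ints8, at 37 to 178 counts. Those of Ccna2 share 510 bases (12.5%) with Exosc9, at 26 to 47 counts. Those of Rb1 share 408 bases (7.24%) with Lpar6, at 12 to 47 counts, and 105 bases (1.86%) with Rcbtb2, at 57 to 154 counts. Those of Ccnd3 share 361 bases (4.11%) with Bysl. Bysl had 91 and 222 counts in proliferating replicates 1 and 2 and 75 and 56 in neuron replicates 1 and 2. For Ccnd2 the overlaps were 3.95% of its exons or less, and its antisense partner 9330179D12Rik had 0 to 4 counts. Overlaps were 2.63% for Cdk6 and 0.547% for Cdk2.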

How the data were processed

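Total RNA depleted of ribosomal RNA (500 ng input) was made into stranded libraries and sequenced with paired reads of 150 bases, per the labels' protocols. The submitters' processing notes name HISAT2, SAMtools, featureCounts, DESeq2 and deepTools 3.4.3 and the build mm10, without settings. For each gene and library, an unnormalized count and an RPKM value were deposited by the authors. The deposited RPKM equals the deposited count divided by the column total and by 1 length per gene, the same in all libraries, so it carries the 18S row in its total. That length exceeds the longest transcript for most members, which lowers their RPKM but not ratios between libraries.

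Groups and replicate numbers came from the titles. edgeR 4.0.16 in R 4.3.3 (TMM, filterByExpr with minimum count 10 and minimum total 15, glmQLFit, glmQLFTest, group as the single term, 4 libraries) was fitted to all genes and adjusted by Benjamini-Hochberg, two-sided. SE is the log2 fold change over the root of F. Pair differences use log2 CPM with a prior count of 2. Counting intervals are exact binomial. No molecular identifiers were read, so counts may repeat molecules and these intervals cover counting error only. With 2 libraries against 2, the smallest two-sided p of an exact permutation test is 0.333, and none was run. Nothing but the labels (biological replicate) says the cultures were separate, so p-values measure the spread between these libraries. Same-numbered deviations from group means correlated with r = 0.33, and set 2 in the titles was taken to mark a shared set. The alternatives were DESeq2 1.42.0, limma 3.58.1 on log2(RPKM + 1) and log2(RPKM + 0.1), other scalings and filters, the replicate block, a GC correction (lowess, span 0.3, GENCODE M21 transcripts, 90.7% of tested genes matched) and leaving out libraries. The main edgeR fit, and none of the alternatives, was also run on simulated counts. No recovery rate is given here, so that run says nothing of the power of the test in these data. Python 3.11.15 with scipy 1.17.1 gave the rest.

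Members and lists were chosen with earlier results of these data known. All members are named. From each pathway list the genes named are those on the same side in both pairs with a log2 fold change beyond 1 and the one with the most counts, and markers may be named. E2f6, Ccnf and Ccnb1 do not meet this rule. E2f6 and Ccnf are named because their groups did not overlap, and Ccnb1 because it went opposite ways in the pairs.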

Additional observations from a re-analysis of the deposited data

How the results depend on the processing

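Each library decided some values, and depth limited Cdk6 and Ccne2, which had 6 to 52 counts per library. Over 15 alternative settings Ccnd1, Ccnd2 and Ccna2 kept their sign. Ccnd1 lay between -2.86 and -1.43 (log2 fold change) over 11 settings of scaling, filter, unit, tool and block, with edgeR or other adjusted p-values of 0.00217 to 1.0000, and between -3.69 and -0.69 with 1 library left out. Without a filter it was -2.77 and called. Ccnd2 lay between -2.12 and -0.90, and between -2.32 and -1.42 with 1 library left out, and it was called with the GC correction and replicate block (-1.94). The replicate block alone changed no call of a member.

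The sign turned under some setting in the other 7 genes, among them Cdk6 at -0.55 and Cdk4 at -0.26, which turned only when a library was left out. With the GC correction Ccnd3 was 0.02, Ccne1 0.06 and Ccne2 -0.34, and with the replicate block added 0.02, 0.06 and -0.33. With library size alone Ccne2 was -0.06 and Cdk2 -0.19. On log2(RPKM + 1) Ccne2 was -0.01 and Cdk2 -0.07, and on log2(RPKM + 0.1) -0.01 and -0.15. With the replicate block Rb1 was 0.09. Ranges with 1 library left out were -0.51 to 0.10 for Ccnd3, -0.33 to 0.15 for Ccne1, -0.47 to 0.95 for Ccne2, 0.14 to 1.38 for Ccna2, -0.06 to 0.14 for Cdk2, -0.74 to 0.39 for Cdk4, -1.68 to 1.09 for Cdk6 and -0.54 to 0.85 for Rb1. The cause was not tested.

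Genes called were 0 higher and 0 lower in the main test. They were 41 higher and 122 lower without a filter, 23 and 70 with the GC correction and replicate block, and 12 and 48 with DESeq2 (1240 adjusted p-values not given). The replicate block gave 3 lower, library size alone 2 lower, log2(RPKM + 1) 1 lower and log2(RPKM + 0.1) 2 lower. With 1 library left out, where the lone library is assumed to vary like the other group, 3 to 33 were higher and 11 to 90 lower. Members higher in both pairs were 0, and lower in both 7, with library size alone, and 4 were lower in both with the GC correction. The shares of all genes in those settings are not given here, so these counts of members have no background.

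Shares within a subfamily moved with the length used. By counts per longest transcript Ccnd1 held 34% and Ccnd3 37.9% of D cyclins in neurons, and Ccne1 86.5% and 83.8% of E cyclins in proliferating cultures and neurons. By raw counts Ccnd1 held 28.3% and Ccnd3 32.5% in neurons, Ccnd2 45.5% and 39.3%, Ccne1 81.3% and 77.8% and Cdk4 94.2% and 96.3% of CDK4 with CDK6, in proliferating cultures and neurons.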
